A study of Mus musculus with 8 samples.

Results

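The genes described here encode the proteins of the mitochondrial ribosome, and were taken as all genes whose symbol in the platform annotation begins with Mrpl or Mrps. Each gene was read from its brightest probe set that names no other gene, which gave 76 genes of the 18193 measured. By the structure of the mammalian particle, 49 of them encode large-subunit proteins and 26 small-subunit proteins, and the remaining gene, Mrps36, keeps its old name but is now assigned to the alpha-ketoglutarate dehydrogenase complex. Mrps30 and Mrps18a are named for the small subunit and sit in the large one. Transcripts were measured in the striatum of 4 R6/2 mice (numbered 64, 65, 70 and 78) and 4 wild-type mice (42, 48, 54 and 63), all female, 85 days old and of a mixed C57Bl/6 and CBA background, with 1 Affymetrix array per mouse. The R6/2 line, a model of Huntington's disease, has a transgene for the first part of human huntingtin with a lengthened CAG repeat, which all cells of the animal carry. The design text gives the age as 12 weeks and counts 5 wild-type mice, of which 1 was not analysed here. Values are log2 intensities, a difference is R6/2 minus wild-type, and a gene is called when its adjusted p in limma (Benjamini-Hochberg over all genes) is under 0.05. Intensities of different probe sets do not rank transcripts, so each gene is compared only with itself.

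Mitochondrial ribosomes make the few proteins that mitochondrial DNA encodes, which are core subunits of the respiratory chain and of ATP synthase. Their RNAs come from mitochondrial DNA, but every protein of the particle is encoded in the nucleus, made in the cytosol and imported. The small subunit holds the messenger RNA and the decoding centre, and the large subunit joins amino acids and passes the chain through an exit tunnel to the inner membrane. Many of the proteins have a counterpart in the bacterial ribosome, and others are found in mitochondria alone. NRF1, GABPA (an ETS factor) and YY1 are transcription factors known for their sites in promoters of nuclear genes for mitochondrial proteins, and striatal neurons depend heavily on respiration.

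The promoters of 4 of the genes called below, and the stretch shared by a pair of ribosomal genes, are shown for the factor motifs they hold. They are RefSeq sequences of build GRCm38.p6, written 5′ to 3′ on the gene's strand and ending at the base before the annotated start. Each begins 250 bases before the start, or next to the start of a neighbouring gene that is read the other way. Capitals mark the letters of a searched motif. Mrpl39 lies on the minus strand (chr16:84735245-84735494) and holds an NRF1 motif 124 to 117 bases before its start. Mrps22, also on the minus strand (chr9:98601680-98601929), holds an ETS motif 11 to 5 bases and an SP1 motif 147 to 142 bases before its start. Mrpl57 is on the plus strand (chr14:57826164-57826238), with Ska3 on its other side and an NRF1 motif 56 to 49 bases before its start. Mrpl32 is on the minus strand (chr13:14613038-14613241), shares its window with Psma2, and holds NRF1 motifs 86 to 79 and 23 to 16 bases and an SP1 motif 35 to 30 bases before its start. The last is the 41 bases between the starts of Mrps11, on the plus strand, and Mrpl46 (chr7:78783090-78783130), chosen after values were seen, with an SP1 motif 16 to 11 bases before the start of Mrps11.
Mrpl39: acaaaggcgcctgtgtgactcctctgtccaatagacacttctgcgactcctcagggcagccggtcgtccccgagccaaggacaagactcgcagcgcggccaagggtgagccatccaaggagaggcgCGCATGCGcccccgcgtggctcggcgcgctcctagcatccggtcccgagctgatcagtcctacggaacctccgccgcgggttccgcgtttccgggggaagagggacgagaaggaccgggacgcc
Mrps22: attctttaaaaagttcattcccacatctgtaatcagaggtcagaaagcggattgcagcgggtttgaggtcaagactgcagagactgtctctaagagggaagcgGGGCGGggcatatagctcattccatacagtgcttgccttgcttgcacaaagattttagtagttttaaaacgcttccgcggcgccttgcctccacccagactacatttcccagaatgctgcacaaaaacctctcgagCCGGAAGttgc
Mrpl57: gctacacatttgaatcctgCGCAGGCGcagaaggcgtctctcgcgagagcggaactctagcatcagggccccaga
Mrpl32: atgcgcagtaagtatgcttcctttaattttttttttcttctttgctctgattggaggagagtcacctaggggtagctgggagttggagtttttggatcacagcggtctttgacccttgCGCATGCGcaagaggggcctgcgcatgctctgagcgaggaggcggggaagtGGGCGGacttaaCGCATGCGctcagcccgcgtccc
Mrps11 and Mrpl46: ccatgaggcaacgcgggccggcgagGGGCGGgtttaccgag

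A promoter of 300 bases, 250 before and 50 after the start, was in the RefSeq table for 67 of the 76 genes and for 8 of the 9 called ones (Mrps34 was not in it). The motifs searched on both strands were CGCANGCG for NRF1, CCGGAAG for ETS factors, AANATGGC for YY1, GGGCGG for SP1, CACGTG for the E-box and AAGGTCA for ERR, each counted whether or not it overlapped another. NRF1 letters stood in 19 mitoribosomal promoters (28.4%), against 13.6% of the promoters of all measured genes. ETS letters stood in 24 (35.8%, against 13.8%) and YY1 letters in 21 (31.3%, against 7.23%), 14 of these reaching past the start in every match. At least the NRF1 or the ETS letters were present in 35 (52.2%, against 24.7%). SP1 letters did not stand out in the same way, in 34 mitoribosomal promoters (50.7%, against 54.1%), and the median G and C content was 58.3% against 58.7%. The E-box stood in 5 (7.46%, against 9.04%) and the ERR letters in 4 (5.97%, against 3.85%). Over all 27025 RefSeq promoters the shares were 8.42% for NRF1, 9.12% for ETS, 6.23% for YY1, 35.9% for SP1, 7.24% for the E-box and 4.66% for ERR. Whether the motifs divide the called genes from the rest was not tested, and the 8 called genes with a promoter are too few to show it. Of these 8, 3 held NRF1 letters, 2 ETS letters and 2 YY1 letters, and 3 held none of these. All 67 had 22 with none (32.8%), against 70.6% of measured genes. These letters describe the windows and show no binding.

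In R6/2 striatum, 9 of the 76 mitochondrial ribosomal protein genes were called higher and none lower. The 9 were Mrpl39, Mrpl20, Mrpl57, Mrpl32 and Mrpl24 of the large subunit and Mrps22, Mrps34, Mrps2 and Mrps17 of the small subunit, and the rises were small, 1.22-fold for Mrpl24 to 1.42-fold for Mrps22. The share called higher, 11.8%, lay near that of all genes, 9.09%, so the number of calls is no result about these genes. Of all genes, 6.19% were called lower. With limma at an unadjusted p under 0.05, 27 mitoribosomal genes were higher and 1 lower, where 17.3% of all genes were higher and 12.3% lower. The differences fell mostly on 1 side. The difference was above 0 in 67 of the 76 genes (88.2%), against 49.3% of all genes, and its median was 0.15 (quartiles 0.096 and 0.24), against -0.0034 over all genes. The 76 genes were brighter than most, with a median level of 8.56 against 6.27. All 76 were among the genes left when the dimmest 40% were taken out. Of the 10916 genes left, 59.2% had a difference above 0, and their median difference was 0.058. There 11 mitoribosomal genes were called higher (14.47%) and 0 lower, against 16.9% and 10.4% of the genes left. Every R6/2 array lay above every wild-type array for 11 genes, where 11.7% of all genes did so, and below for 1, Mrpl52, where 7.67% did so. The genes are not replicates of one another, and no test was made on their number. In a tissue measured as a whole, more RNA per cell and more cells of a type cannot be told apart.

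**Figure D1:**
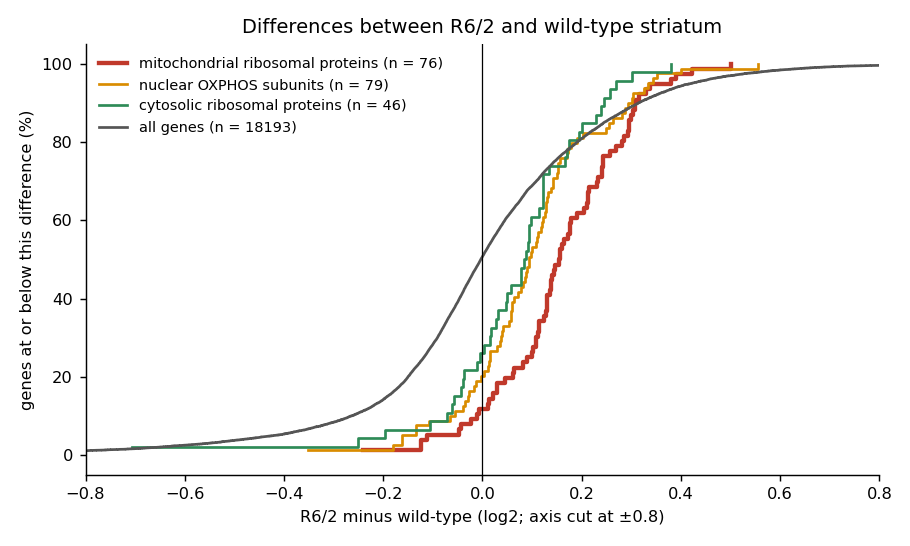
The share of genes (vertical axis, %) at or below each log2 difference, R6/2 minus wild-type (horizontal axis), for the 76 mitochondrial ribosomal protein genes, 79 nuclear subunits of oxidative phosphorylation, 46 cytosolic ribosomal proteins and all 18193 genes. The curve of the mitoribosomal genes lies to the right of that of all genes over most of its range, with a median of 0.15 against -0.0034, and the largest differences belong to other genes.

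Wild-type array 42 stood apart in RNA quality: its mean 3′ minus 5′ difference over the Gapdh and actin control transcripts was 1.80, against 0.83 to 0.88 on the R6/2 arrays and 0.90 to 1.04 on the other wild-type arrays. Without it, 10 mitoribosomal genes were called higher and 0 lower, where 8.68% and 5.31% of all genes were. The 10 were the same 9 and Mrps5, a core protein of the small subunit with a bacterial counterpart. Mrps5 differed by 0.21 with the array (adjusted p = 0.195) and by 0.31 without it (adjusted p = 0.0287). The median over the 76 genes was 0.16 without the array, and 68 differences lay above 0. The other wild-type arrays also lay above every R6/2 array on the 3′ minus 5′ measure. Leaving out array 42 therefore does not remove this difference between the groups. With the measure as a covariate, 13.2% of the 76 genes were called higher, against 6.94% of all genes, and 70 differences lay above 0.

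**Figure D2:**
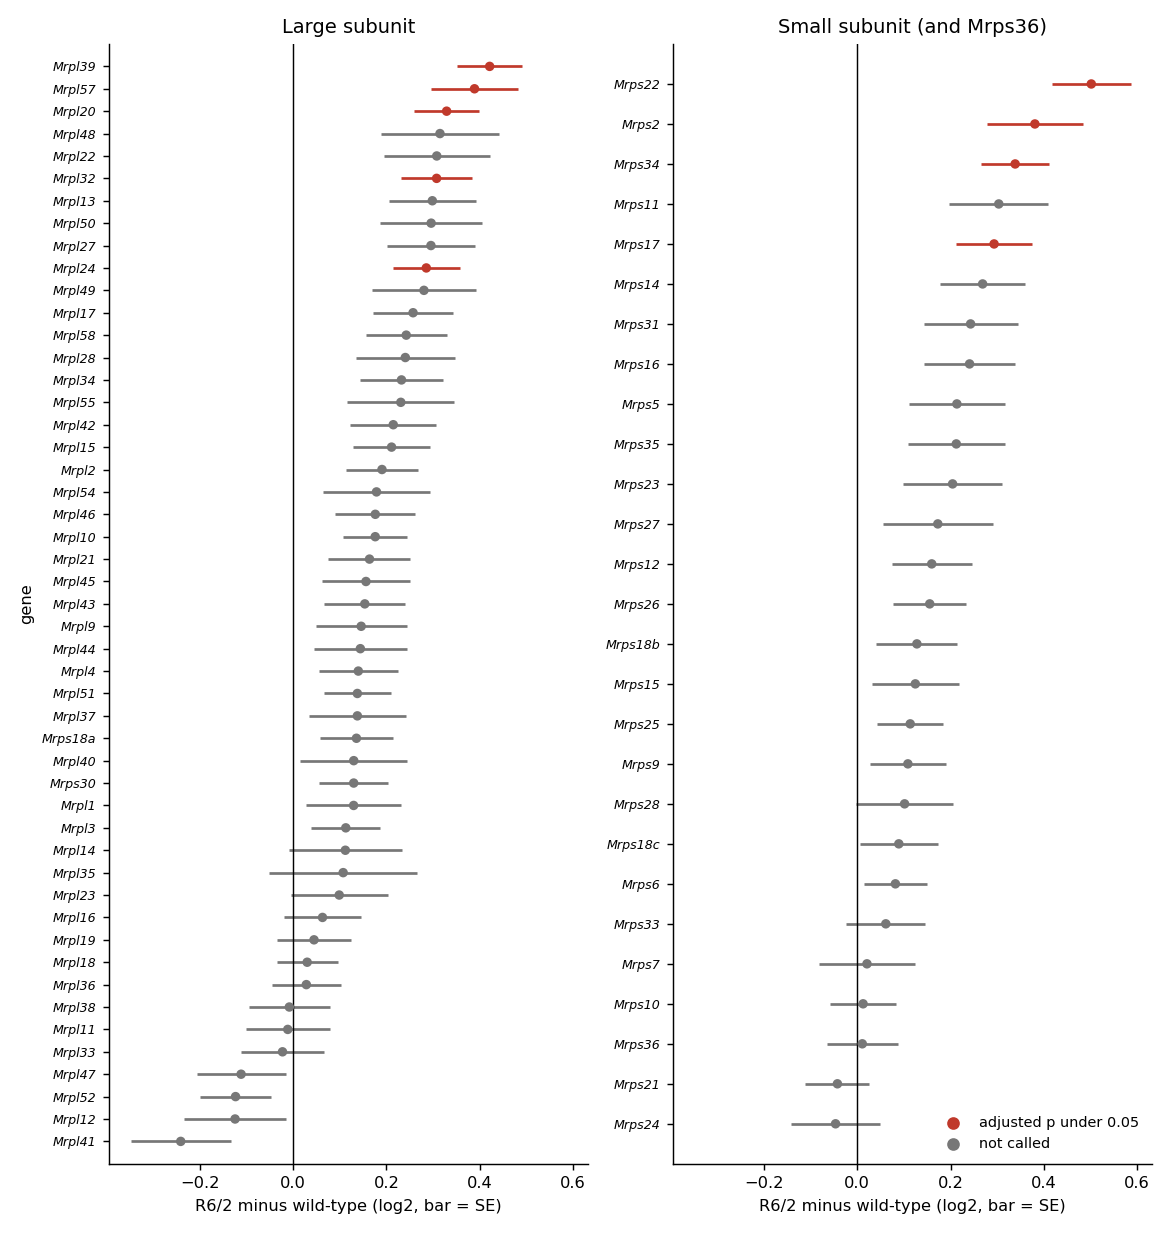
Log2 difference, R6/2 minus wild-type, of each of the 76 genes (points) with its standard error (bars), by subunit and sorted by size, with called genes in red. The 49 large-subunit genes run between -0.24 (Mrpl41) and 0.42 (Mrpl39), and most points of both panels lie to the right of 0.

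Mrpl39, a large-subunit protein related to threonyl-tRNA synthetase that sits near the exit of the tunnel, had the smallest adjusted p. Its values (probe set 1448909_a_at) were 10.40, 10.28, 10.33 and 10.26 in R6/2 mice 64, 65, 70 and 78, against 9.92, 9.81, 9.88 and 9.97 in wild-type mice 42, 48, 54 and 63. The lowest R6/2 value lay well above the highest wild-type value. The means were 10.32 ± 0.066 and 9.89 ± 0.068 (SD, n = 4 each), a difference of 0.42 ± 0.07 (SE, adjusted p = 0.00348), or 1.34-fold. A second tunnel protein, Mrpl24, which has a bacterial counterpart, had (probe set 1428709_a_at) 9.11, 8.97, 9.13 and 9.02 in R6/2 mice in the same order, against 8.86, 8.79, 8.70 and 8.75 in wild-type mice. The groups were apart here as well, by a narrower margin, with a difference of 0.29 ± 0.072 (adjusted p = 0.0239). Mrpl20, an rRNA-binding protein needed early in large-subunit assembly in bacteria, had (probe set 1416093_a_at) 9.78, 9.76, 9.74 and 9.83 in R6/2 mice, against 9.52, 9.45, 9.49 and 9.33 in wild-type mice. Its R6/2 values lay close together, and wild-type mouse 63 was the lowest of the 8. The difference was 0.33 ± 0.07 (adjusted p = 0.0112).

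Mrpl57, a small mitochondria-specific protein of the large subunit, had (probe set 1418137_at) 9.61, 9.29, 9.63 and 9.56 in R6/2 mice, against 9.24, 9.06, 9.03 and 9.20 in wild-type mice. The groups did not overlap, but R6/2 mouse 65 lay only just above wild-type mouse 42. Its difference was 0.39 ± 0.093 (adjusted p = 0.0196). Mrpl32, whose processing by a protease of the inner membrane precedes its assembly into the ribosome in yeast, had (probe set 1424372_at) 8.99, 8.73, 8.89 and 8.83 in R6/2 mice, against 8.61, 8.52, 8.49 and 8.59 in wild-type mice. All R6/2 values were above all wild-type values, again with mouse 65 as the lowest of its group. Mrpl32 differed by 0.31 ± 0.076 (adjusted p = 0.0227).

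**Figure D3:**
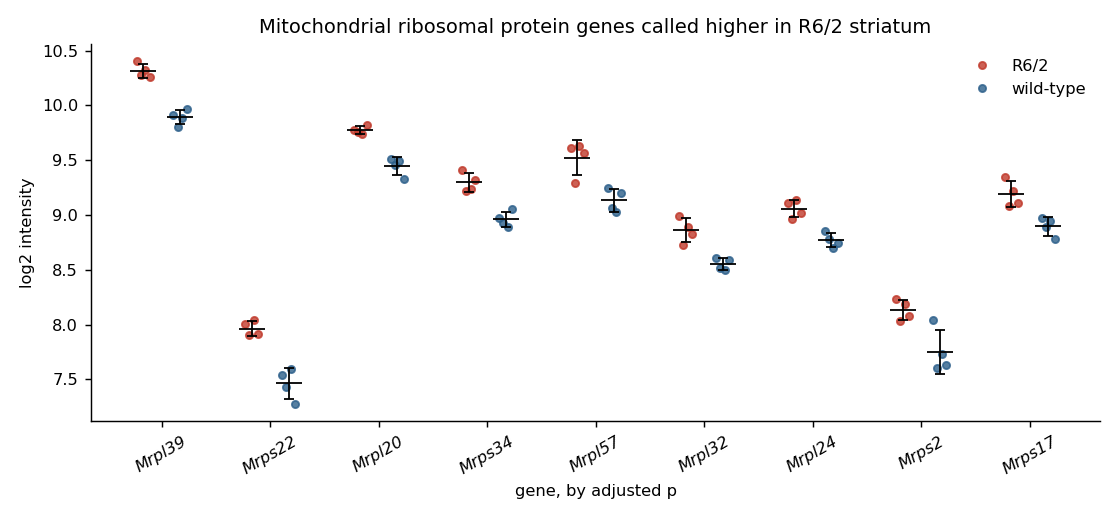
Log2 intensity (vertical axis) of the 9 called genes on each array, R6/2 in red left of wild-type in blue, with mean and SD (bars, n = 4 each). For 8 of the genes every R6/2 point lies above every wild-type point, and for Mrps2 wild-type mouse 42 lies level with the lowest R6/2 mouse.

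In the small subunit the largest difference of all 76 genes was that of Mrps22, a mitochondria-specific protein whose mutation causes mitochondrial disease in humans. Mrps22 had (probe set 1416595_at) 8.002, 7.90, 8.04 and 7.91 in R6/2 mice, against 7.54, 7.43, 7.60 and 7.28 in wild-type mice. All R6/2 values lay above all wild-type values, and wild-type mouse 63 was lowest. The means were 7.96 ± 0.067 and 7.46 ± 0.14 (SD, n = 4 each), a difference of 0.50 ± 0.084 (adjusted p = 0.00362). Mrps34, also mitochondria-specific, had (probe set 1421971_a_at) 9.41, 9.22, 9.24 and 9.32 in R6/2 mice, against 8.97, 8.92, 8.89 and 9.05 in wild-type mice. These did not overlap, and the difference was 0.34 ± 0.073 (adjusted p = 0.0125). Mrps17, an rRNA-binding protein with a bacterial counterpart, had (probe set 1453728_a_at) 9.34, 9.09, 9.22 and 9.11 in R6/2 mice, against 8.97, 8.89, 8.94 and 8.78 in wild-type mice. R6/2 mouse 64 was highest and the groups were apart, with a difference of 0.29 ± 0.082 (adjusted p = 0.0359). Mrps2, the counterpart of bacterial S2, had (probe set 1420846_at) 8.23, 8.03, 8.19 and 8.08 in R6/2 mice, against 8.04, 7.60, 7.73 and 7.63 in wild-type mice. Wild-type mouse 42 reached the range of the R6/2 mice and the other wild-type mice lay below it. The difference of Mrps2 was 0.38 ± 0.10 (adjusted p = 0.0320), and 0.48 without mouse 42 (adjusted p = 0.00597).

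Of the 9 calls, 5 depended on which array was left out. Mrpl39, Mrps22, Mrps34 and Mrpl20 stayed called with any single array left out. Mrpl57, Mrpl32, Mrpl24, Mrps2 and Mrps17 all lost the call when mouse 64 or 70 (R6/2) or mouse 48 or 54 (wild-type) was left out, at adjusted p-values of up to 0.0952, 0.0919, 0.0940 and 0.0673. Mrpl57, Mrps2 and Mrps17 lost it without R6/2 mouse 78 (up to 0.0581), and Mrps2 and Mrps17 without wild-type mouse 63 (up to 0.0761). The number called higher was 4 (5.26%) when mouse 64, 70, 48 or 54 was left out. Of all genes, 5.47%, 5.08%, 5.06% and 6.76% were then called higher, in the same order. Leaving out mouse 78 (R6/2) gave 7 (9.21%, against 6.19% of all genes) and mouse 65 (R6/2) 12 (15.8%, against 8.09%). Leaving out mouse 42 or mouse 63 (wild-type) gave 10 (13.2%, against 8.68% and 7.49%).

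By class of protein, the mitochondria-specific proteins of the small subunit had the highest median difference. Among large-subunit genes, 3 of 30 with a bacterial counterpart and 2 of 19 mitochondria-specific ones were called, with median differences of 0.14 and 0.16. Among small-subunit genes, 2 of 17 with a bacterial counterpart and 2 of 9 mitochondria-specific ones were called, with medians of 0.12 and 0.20. All 9 mitochondria-specific small-subunit genes had a difference above 0, between 0.061 for Mrps33 and 0.50 for Mrps22. Without wild-type mouse 42 the medians in the same order were 0.16 and 0.18 in the large subunit and 0.11 and 0.27 in the small. The medians of the whole subunits were 0.15 for the large and 0.16 for the small with all arrays. Of all genes, 9.09% were called higher, and with so few genes in each class the numbers of calls are no result about a class. Differences between classes were not tested.

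By place in the particle, the groups held at most 8 genes. Of all genes, 9.09% were called higher, and 17.3% were higher at an unadjusted p under 0.05. Counts in groups this small are therefore no result about a place. The 8 genes around the exit tunnel had 2 calls and a median difference of 0.21. The others of these not called included Mrpl22, a protein that lines the tunnel, with 9.64, 9.13, 9.64 and 9.46 in R6/2 mice, against 9.26, 9.14, 9.04 and 9.20 in wild-type mice. R6/2 mouse 65 fell among the wild-type mice, and the difference of 0.31 ± 0.11 was not called (adjusted p = 0.0959). The 8 genes of the central protuberance, which contacts the small subunit, had 0 calls in limma, 3 of them higher at an unadjusted p under 0.05, and a median of 0.20. Among them Mrpl48 had the largest difference of any gene not called, 0.32 ± 0.13 (adjusted p = 0.123), with 8.47, 8.23, 8.41 and 7.94 in R6/2 mice, against 7.78, 8.13, 8.07 and 7.82 in wild-type mice. Here R6/2 mouse 78 lay below wild-type mice 48 and 54. Mrpl27, also of this region, had 9.97, 9.72, 9.88 and 9.83 in R6/2 mice, against 9.36, 9.66, 9.48 and 9.72 in wild-type mice, where only R6/2 mouse 65 and wild-type mouse 63 met. It differed by 0.30 ± 0.095 (adjusted p = 0.0607).

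The 4 proteins of the stalk, where translation factors bind, had 0 calls and a median difference of 0.082. Of them 1 was higher and 0 lower at an unadjusted p under 0.05, where 17.3% of all genes were higher and 12.3% lower. Mrpl10 at the base of the stalk differed by 0.18 ± 0.068 without overlap (adjusted p = 0.111), while Mrpl12, the stalk protein that also binds the mitochondrial RNA polymerase, differed by -0.12 ± 0.11 (adjusted p = 0.498). Mrpl54, near the stalk and read from a dim probe set, had 6.70, 6.30, 6.29 and 6.28 in R6/2 mice, against 5.98, 6.29, 6.30 and 6.29 in wild-type mice. The values lay close together except a high one in R6/2 mouse 64 and a low one in wild-type mouse 42. In the head of the small subunit 0 of 8 genes were called, 2 being higher at an unadjusted p under 0.05, and the median was 0.085. Mrps33, a head protein, had 10.16, 10.02, 10.04 and 9.93 in R6/2 mice, against 9.86, 9.99, 10.14 and 9.92 in wild-type mice, overlapping ranges with a difference of 0.061 ± 0.085 (adjusted p = 0.682). Mrps12, of the decoding centre, differed by 0.16 ± 0.086 (adjusted p = 0.250). Mrpl58, a peptidyl-tRNA hydrolase built into the large subunit that frees stalled chains, differed by 0.24 ± 0.086 without overlap (adjusted p = 0.0858).

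A difference below 0 was found for 9 genes, all short of a call: Mrpl41, Mrpl52, Mrpl12, Mrpl47, Mrps24, Mrps21, Mrpl33, Mrpl11 and Mrpl38, most of which are named here after their values were seen. Mrpl41, a mitochondria-specific protein of the large subunit, had 9.69, 9.23, 9.61 and 9.62 in R6/2 mice, against 9.88, 9.64, 9.72 and 9.87 in wild-type mice, a difference of -0.24 ± 0.11 (adjusted p = 0.163). R6/2 mouse 65 was lowest and mouse 64 lay above wild-type mouse 48. Mrpl52, likewise mitochondria-specific, had 9.74, 9.52, 9.71 and 9.74 in R6/2 mice, against 9.75, 9.79, 9.88 and 9.78 in wild-type mice. The groups were apart by a small margin, with R6/2 mouse 65 far below the rest, and the difference was -0.12 ± 0.076 (adjusted p = 0.314). Mrpl1, the counterpart of bacterial L1 at the mobile side stalk and read from a dim probe set, had 6.43, 6.26, 6.25 and 6.24 in R6/2 mice, against 6.26, 6.04, 6.39 and 5.97 in wild-type mice. The ranges overlapped, and the difference was 0.13 ± 0.10 (adjusted p = 0.436).

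For 42 of the genes the platform holds further probe sets, 80 in all, dimmer by the choice of the brightest and with a median level of 5.86. In a fit over 45037 probe sets, where 5.54% were called higher and 4.59% lower, 7 of the 80 were called higher and 1 lower. Of the 80, 26 had a difference of opposite sign to the brightest probe set of the same gene, and their median difference was 0.079. Mrps9, a small-subunit head protein, was called in neither direction by its brightest probe set, at 0.11 ± 0.082 (adjusted p = 0.422). Its probe set 1439210_at had 6.27, 6.55, 6.55 and 6.65 in R6/2 mice, against 6.94, 6.80, 6.87 and 6.98 in wild-type mice. All R6/2 values there were below all wild-type values, and the difference of the means was -0.39 ± 0.092 (adjusted p = 0.0241 over all probe sets).

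Mrpl11, a stalk protein, was called higher by a further probe set alone. Its brightest probe set, 1437131_x_at, is of a kind that can share probes with other transcripts, and had 9.04, 8.72, 9.06 and 8.95 in R6/2 mice, against 9.06, 8.95, 8.86 and 8.95 in wild-type mice. The ranges overlapped, with a difference of -0.011 ± 0.09 (adjusted p = 0.950). Its next probe set, 1417918_at, had 8.93, 8.96, 8.93 and 8.95 in R6/2 mice, against 8.61, 8.71, 8.71 and 8.66 in wild-type mice. These groups did not overlap, and the means differed by 0.27 ± 0.063 (adjusted p = 0.0261). For Mrpl39 and Mrps2 the further probe set was called higher too, by 0.51 and 0.39 (adjusted p = 0.0154 and 0.0478). Further probe sets were also called higher for Mrpl50 (0.58, adjusted p = 0.00940), Mrps14 (0.46, 0.0247), Mrps23 (0.45, 0.0335) and Mrpl44 (0.31, 0.0225), named after their values were seen, none of them called by the brightest probe set. The further probe set of Mrpl57 differed by 0.025 ± 0.17 (adjusted p = 0.948), and with the mean of both sets Mrpl57 was no longer called (0.21, adjusted p = 0.152).

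The R6/2 mice differed from each other. Averaged over the 76 genes, the difference from the wild-type mean was 0.28, 0.038, 0.19 and 0.13 in R6/2 mice 64, 65, 70 and 78, against 0.041, -0.032, -0.0094 and 0.00042 in wild-type mice 42, 48, 54 and 63. R6/2 mouse 65 lay just below wild-type mouse 42, so on this average the groups overlapped. Mouse 64 had the highest R6/2 value for 51 of the 76 genes and mouse 65 the lowest for 55. Wild-type mouse 42 had the highest wild-type value for 39. The median over all genes lay between -0.040 and 0.016 on every array by the same measure.

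The markers of cortical projection neurons, cells next to the striatum, ran in the same order within the R6/2 mice. Within the wild-type mice, mouse 42 was highest in both averages, but mouse 48 was lowest for the mitoribosomal genes and mouse 54 for these markers. Averaged over the 6 measured of 7 markers, their difference from the wild-type mean was 0.010, -1.38, -0.61 and -1.23 in R6/2 mice 64, 65, 70 and 78, against 0.65, 0.10, -1.001 and 0.25 in wild-type mice. None of the 6 was called in limma, 4 were lower at an unadjusted p under 0.05, and all 6 had a difference below 0. With this average as a covariate, 15 mitoribosomal genes were called higher (19.7%, against 5.90% of all genes) and the median difference was 0.23. Mrpl20 (0.32, adjusted p = 0.0521) and Mrps17 (0.35, adjusted p = 0.0515) were then no longer called, at differences beside 0.33 and 0.29 without the covariate. In limma without the covariate, 6.19% of all genes were called lower and 9.09% higher. At an unadjusted p under 0.05, 12.3% of all genes were lower and 17.3% higher. Of medium spiny neuron markers, 7 of 8 measured were called lower, with averages of -0.92 to -0.85 in R6/2 mice, against -0.23 to 0.097 in wild-type mice. Called lower were also 3 of 5 endothelial markers (averages of -0.48 to -0.27 in R6/2 mice, against -0.14 to 0.095), 2 of 6 astrocyte markers (-0.32 to -0.24, against -0.17 to 0.24) and 1 of 5 oligodendrocyte markers. In limma 0 of 7 microglial, 6 neuronal and 5 choroid plexus and ependymal markers were called in either direction, with 2, 2 and 0 of them at an unadjusted p under 0.05. The choroid plexus and ependymal markers averaged -0.90, 1.51, 1.07 and 0.88 in R6/2 mice 64, 65, 70 and 78, against -0.30, 0.23, -0.94 and 1.02 in wild-type mice 42, 48, 54 and 63. Here R6/2 mouse 64 was the lowest of its group and mouse 65 the highest, the reverse of their places in the mitoribosomal average, and the groups overlapped. The part of cell composition and dissection in the mitoribosomal differences was not tested.

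**Figure D4:**
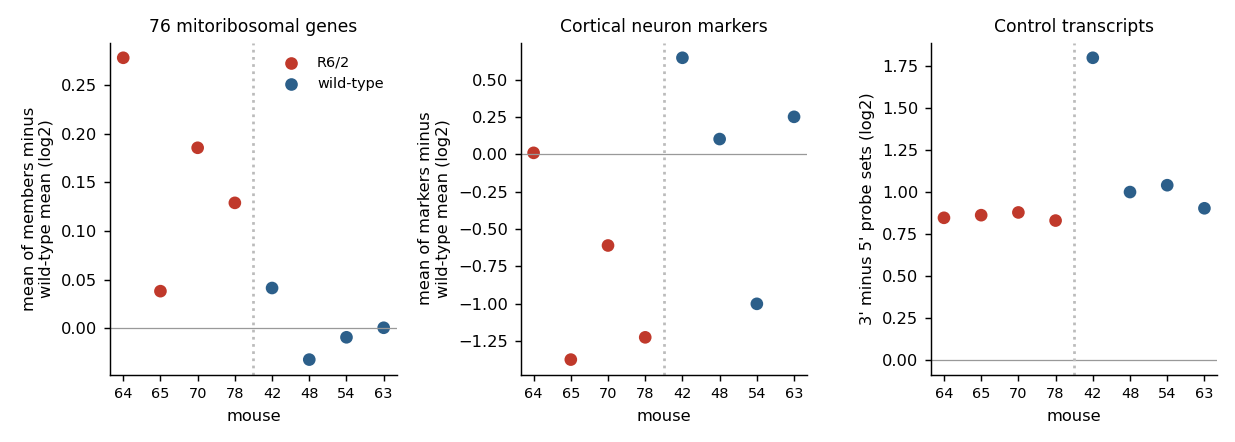
Each array's value, R6/2 mice left of wild-type mice: the mean over the 76 genes minus the wild-type mean (log2), the same for 6 cortical neuron markers, and the 3′ minus 5′ difference of control transcripts. R6/2 mouse 64 is highest and mouse 65 lowest of the R6/2 mice in both of the first panels, and wild-type mouse 42 stands apart in the last, at 1.80.

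Mitoribosomal genes often lay head to head with another gene. A start on the opposite strand within 1000 bases upstream was annotated for 25 of the 67 genes with a promoter (37.3%), against 15.2% of measured genes. Of the 25 neighbours, all measured, 6 were called higher and 0 lower in limma, beside 9.09% and 6.19% of all genes. Mrps11 and Mrpl46 are each other's neighbour, so these 2 members also count among the 25. A difference above 0 was found for 17 of the 25, beside 49.3% of all genes. At an unadjusted p under 0.05, 7 were higher and 0 lower, beside 17.3% and 12.3% of all genes. The neighbours were not in the rule for naming genes and are named after their values were seen.

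Psma2, a proteasome subunit whose start lies 205 bases from that of Mrpl32, was the case in which both genes were called. Psma2 averaged 10.71 ± 0.079 in R6/2 mice and 10.32 ± 0.085 in wild-type mice (SD, n = 4 each), a difference of 0.39 ± 0.075 (adjusted p = 0.00673), beside 0.31 for Mrpl32. Called neighbours of genes that were not called were Hira, a histone chaperone (0.64, adjusted p = 0.000539, beside 0.13 for Mrpl40), Klc4, a kinesin light chain (0.51, adjusted p = 0.00310, beside 0.19 for Mrpl2), and 2610507I01Rik (0.81, adjusted p = 0.0251, beside 0.23 for Mrpl55). Tcp1, a subunit of the cytosolic chaperonin, differed by 0.28 (adjusted p = 0.0344), beside 0.030 for Mrpl18. Ndufb5, a subunit of respiratory complex I, differed by 0.29 (adjusted p = 0.0322), beside -0.11 for Mrpl47, whose start lies 308 bases away. Ska3, 76 bases from the start of called Mrpl57, differed by 0.071 (adjusted p = 0.612). Mrps11 and Mrpl46, with starts 42 bases apart, differed by 0.30 and 0.18 (adjusted p = 0.0812 and 0.200).

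**Figure D5:**
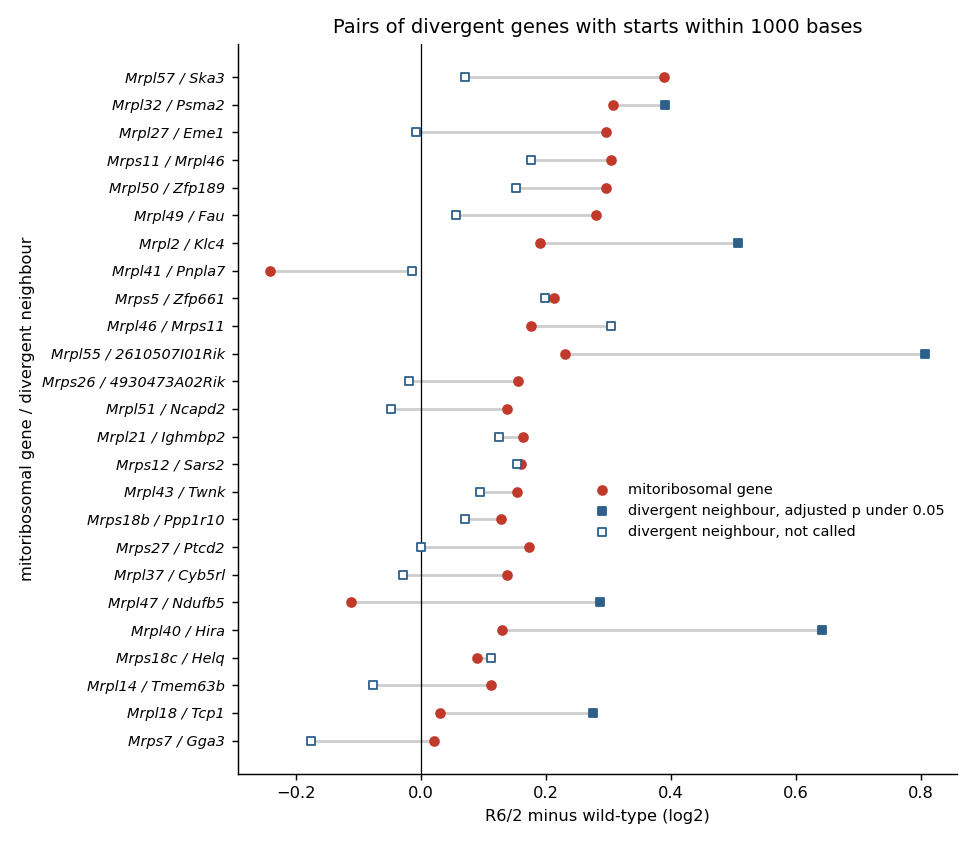
Log2 difference, R6/2 minus wild-type, of the 25 mitoribosomal genes with a divergent neighbour (circles) and of that neighbour (squares, filled where called), joined by lines. The 6 filled squares lie between 0.28 for Tcp1 and 0.81 for 2610507I01Rik, and the pair of Mrpl32 and Psma2 is the only one in which both are called.

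Other genes of mitochondrial translation were read from lists chosen with earlier results known. Of mitoribosomal proteins with other names, 4 were measured and 0 called in limma, with 1 higher at an unadjusted p under 0.05. Dap3, a GTP-binding protein of the small-subunit head, differed by -0.073 (adjusted p = 0.699), and Gadd45gip1, named after its value was seen, by 0.56 ± 0.18 (adjusted p = 0.0637). Of 26 genes for assembly of the particle and modification of its RNAs, 3 were called higher (11.5%, against 9.09% of all genes) and 0 lower. Their median difference was 0.22. At an unadjusted p under 0.05, 13 were higher (17.3% of all genes were) and 0 lower. Mterf3, needed for large-subunit assembly in the mouse, had 8.72, 8.56, 8.79 and 8.58 in R6/2 mice 64, 65, 70 and 78, against 8.01, 8.23, 8.04 and 8.04 in wild-type mice. All R6/2 values were above all wild-type values, and the means differed by 0.58 ± 0.083 (adjusted p = 0.00164). The pseudouridine synthases Trub2 and Rpusd4 rose by 0.53 ± 0.11 and 0.35 ± 0.080 (adjusted p = 0.00957 and 0.0165). Without wild-type mouse 42, 7 of the 26 were called higher, beside 8.68% of all genes.

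Of 11 translation factors measured, 2 were called higher (18.2%) and 1 lower (9.09%), beside 9.09% and 6.19% of all genes. The difference was above 0 for 9 of the 11, and the median was 0.12. There were 3 higher and 1 lower at an unadjusted p under 0.05. Guf1, a GTPase related to bacterial elongation factor 4, had 7.16, 6.94, 7.09 and 6.97 in R6/2 mice, against 6.05, 6.21, 6.42 and 6.58 in wild-type mice. The groups were well apart, and the means differed by 0.72 ± 0.11 (adjusted p = 0.00260). Mtfmt, which formylates the initiator tRNA, rose by 0.37 ± 0.083 (adjusted p = 0.0154), and Gfm2, which splits the subunits after termination, fell by 0.33 on the log2 scale (SE 0.097, adjusted p = 0.0438). The other 8 of the 11 measured were not called. Of 19 genes for charging mitochondrial tRNAs, 1 was called higher and 1 lower (5.26% each, beside 9.09% and 6.19% of all genes). Hars2 rose by 0.28 ± 0.083 (adjusted p = 0.0456) and Pars2 fell by 0.45 on the log2 scale (SE 0.12, adjusted p = 0.0282). Both attach an amino acid, histidine and proline, to its mitochondrial tRNA.

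Of 24 genes for mitochondrial DNA and its transcripts, 4 were called higher (16.7%) and 0 lower, beside 9.09% and 6.19% of all genes. There were 8 higher and 0 lower at an unadjusted p under 0.05, beside 17.3% and 12.3% of all genes. Tfam, which packs mitochondrial DNA and starts its transcription, had 7.61, 7.57, 7.42 and 7.54 in R6/2 mice, against 7.21, 7.01, 7.28 and 7.03 in wild-type mice. No values overlapped, and the difference was 0.40 ± 0.084 (adjusted p = 0.0109). Fastkd1, of a family of mitochondrial RNA-binding proteins, rose by 0.52 ± 0.13 (adjusted p = 0.0192) and Ssbp1, the single-stranded DNA-binding protein of mitochondria, by 0.29 ± 0.077 (adjusted p = 0.0295). Without wild-type mouse 42, Ssbp1 was no longer called (adjusted p = 0.0539), though 4 of the 24 genes were called higher, beside 8.68% of all genes. Of 4 genes listed for the insertion of new chains into the inner membrane, Cox18 and Tmem126a were called higher, by 0.51 ± 0.11 and 0.33 ± 0.092 (adjusted p = 0.0133 and 0.0342). Of all genes, 9.09% were called higher, and a count among 4 genes is no result about the list. Without wild-type mouse 42, Cox18 stayed called (adjusted p = 0.0319) and Tmem126a did not (adjusted p = 0.0712).

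Among 8 regulators of nuclear genes for mitochondria, 1 was called higher and 1 lower (12.5% each, beside 9.09% and 6.19% of all genes). Gabpa, the DNA-binding subunit of the ETS factor whose letters were counted above, had 7.54, 7.84, 7.66 and 7.48 in R6/2 mice, against 7.39, 7.11, 7.12 and 7.07 in wild-type mice. The groups were apart, with R6/2 mouse 78 just above wild-type mouse 42, and the means differed by 0.46 ± 0.10 (adjusted p = 0.0137). Gabpa was highest in mouse 65, the R6/2 mouse with the lowest mitoribosomal average. Whether Gabpa and the mitoribosomal genes are related was not tested. Ppargc1b, a coactivator of such genes, had 9.07, 9.02, 9.06 and 9.14 in R6/2 mice, against 9.77, 9.84, 9.81 and 9.57 in wild-type mice. It was lower in every R6/2 mouse, and fell by 0.68 on the log2 scale (SE 0.079, adjusted p = 0.000576). Nrf1 differed by 0.076 (adjusted p = 0.770), Yy1 by -0.038 (adjusted p = 0.822) and Ppargc1a by -0.029 (adjusted p = 0.908), named because their motifs or relatives appear above.

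The nuclear subunits of oxidative phosphorylation share the respiratory complexes with the products of these ribosomes. Of 79 such genes, 8 were called higher (10.1%) and 1 lower, beside 9.09% and 6.19% of all genes. There were 17 higher and 1 lower at an unadjusted p under 0.05, beside 17.3% and 12.3% of all genes. The share called higher lay near that of all genes, so the number of such calls is no result about this list. In it 63 differences lay above 0, and the median was 0.094. Cyc1 of complex III and Atp5b and Atp5g1 of ATP synthase led the rises, at 0.40 ± 0.079, 0.35 ± 0.072 and 0.34 ± 0.074 (adjusted p = 0.00776, 0.00952 and 0.0121). The gene called lower was Cox6a2, a muscle-type subunit of cytochrome c oxidase (-0.35 ± 0.088, adjusted p = 0.0237), named after its value was seen. Without wild-type mouse 42, 6 of the 79 were called higher and 1 lower, beside 8.68% and 5.31% of all genes. Of 46 cytosolic ribosomal proteins, 2 were called higher (4.35%, against 9.09% of all genes) and 0 lower. The 2 were Rps9 and Rps27 (0.38 and 0.26, adjusted p = 0.0269 and 0.0361). There were 8 higher and 2 lower at an unadjusted p under 0.05, 34 differences above 0 and a median of 0.085. Without wild-type mouse 42, Rps9 stayed called (adjusted p = 0.0417) and Rps27 did not (adjusted p = 0.0693). The medians of these groups and of the mitoribosomal genes, 0.15, are set side by side as descriptions, and their difference was not tested.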

How the data were processed

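Striatal RNA of 4 R6/2 and 4 wild-type mice was hybridised to Affymetrix arrays. The authors deposited 1 log2 expression value per probe set and array. They used RMA and affy, per the submitters' processing notes, with no versions named. RMA removes background, puts arrays on a common scale and combines the probes of a set. The set of arrays it scaled jointly was not given in the sources used here. RMA shrinks differences of dim probe sets, whose signal is mostly background.

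Of 45101 probe sets, 64 controls were left out. The platform annotation gave a single symbol for 34945, several for 932 and no entry for 9160. Each of 18193 genes was read from its probe set with the highest mean. All 8 arrays were fitted in limma 3.58.1 (R 4.3.3), with lmFit and eBayes. Benjamini-Hochberg adjustment ran over all genes, and a call is an adjusted p under 0.05. The code was tested on simulated data. A fold is the antilog of the difference, and standard errors are moderated. Precision is limited by the number of arrays, since a p-value here rests on the spread among 8 animals.

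The members, lists and motifs were chosen with earlier results of these data known. Named members are every called member, the 4 with the highest and 2 with the lowest mean, those with a further probe set called the other way, and the 2 largest differences not called. From each other list, up to 3 called genes with the smallest adjusted p are named, or the brightest where none was called. List sizes count measured genes, and some listed genes, such as Taco1 and Mtrf1, were not measured here by a probe set of their own. Promoters are RefSeq sequences of GRCm38.p6, 1 per gene. Alternatives were quantile normalization, median centring, leaving out the dimmest 40% of genes, other probe set choices, other moderation, array weights, 2 covariates (the 3′ minus 5′ signal and the cortical marker average) and leaving out each array. Plots used matplotlib 3.10.9 under Python 3.11.15.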

Additional observations from a re-analysis of the deposited data

Results flagged for a closer look

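In 38 groups of 4 arrays (the 18 named genes and the average over the 76 genes, in each genotype), 1 array stood far from the other 3 in 4 groups. The measure is the gap to the nearest array as a share of the group's range, set against Dixon's critical value for 4 samples. Chance gives this in about 1 in 20 groups. R6/2 mouse 65 had 9.52 for Mrpl52, against 9.71 to 9.74 in the other R6/2 mice (share 0.894). R6/2 mouse 64 had 6.43 for Mrpl1, against 6.24 to 6.26 in the others (share 0.896). For Mrpl54, R6/2 mouse 64 had 6.70, against 6.28 to 6.30 (share 0.962), and wild-type mouse 42 had 5.98, against 6.29 to 6.30 in the other wild-type mice (share 0.951). None of these genes was called. The cause was not tested.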

How the results depend on the processing

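No paired analysis was possible because the groups share no mouse numbers. The median difference of the 76 genes stayed above 0 under all 18 alternatives, from 0.12 without R6/2 mouse 64 to 0.23 with the cortical marker covariate, and no mitoribosomal gene was called lower under any. The number called higher, 9, became 17 with array weights, 15 with the cortical marker covariate and 6 without moderation, and lay between 4 and 12 when 1 array was left out. Of all genes, 12.6% were called higher with array weights, 5.90% with the cortical marker covariate and 4.50% without moderation, beside 9.09% in the main fit. That share lay between 5.06% and 8.68% when 1 array was left out. The number of all genes called, 2781, became 1399 without moderation and 1744 with the cortical marker covariate, and lay between 1679 and 2545 when 1 array was left out. Mrpl39, Mrps22 and Mrps34 were called under all 18 alternatives, Mrpl20 under 17, Mrpl32 and Mrpl24 under 14, Mrpl57 and Mrps2 under 11 and Mrps17 under 10. Mrpl11, at -0.011, changed sign to 0.062 with the mean of its probe sets, 0.27 without probe sets of the _s_at and _x_at kinds, 0.034 with array weights, 0.042 with the 3′ minus 5′ covariate and 0.11 with the cortical marker covariate. Leaving out mouse 65 (R6/2) gave 0.063, and leaving out mouse 42 (wild-type) 0.024. Mrps9 changed sign to -0.051 with the mean of its probe sets. Beyond the other probe sets or fewer arrays these settings use, the cause was not tested. Differences of dim genes such as Mrpl1 and Mrpl54 are limited by background.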

Other observations

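Symbols of 2 further genes of this kind, Mrpl53 and Mrpl30, stood only on probe sets that also name another gene and were not counted. The probe set shared by Mrpl53 and Ccdc142 differed by 0.13 ± 0.077 (SE, adjusted p = 0.333 in limma over all probe sets), with every R6/2 array above every wild-type array. The brighter of the sets shared by Mrpl30 and Gm6238 differed by -0.043 ± 0.10 (adjusted p = 0.838). A set shared by Mrps34 and Nme3 differed by 0.0030 ± 0.10 (adjusted p = 0.991), beside the 0.34 of the set that names Mrps34 alone.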
